A study of Rattus norvegicus with 10 samples.

Results

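The genes described here are Ahcy and 9 genes that surround it in the methionine and transsulfuration cycle, Ahcyl1, Ahcyl2, Mat2a, Mat2b, Mtr, Mtrr, Cbs, Cth and Adk. Every array probe whose transcript belongs to one of these 10 genes was taken, which gave 14 of 30367 probes, and the array named 15154 genes in all. Ahcy had 1 probe (A_43_P15271, transcript NM_017201) printed in 2 spots per array, and the other 9 genes had 1 or 2 probes each. RNA levels were measured in PCCl3, a permanent cell line grown out of rat thyroid follicles, after silencing of FoxE1, a thyroid forkhead transcription factor. siFoxE1 cells had received 25 nM of a pool of siRNAs against rat FoxE1 with a lipid reagent. siScramble cells had received a pool of non-targeting siRNAs in the same way, and wt cells were neither transfected nor treated. All cells grew in the same medium with donor calf serum and hormones that included TSH, and RNA was taken 48 h after transfection. Each of 10 two-colour arrays carried siFoxE1 RNA in one dye and siScramble or wt RNA in the other. For each of these 2 comparisons, 4 arrays held single cultures (siFoxE1 dyed with Cy5), and the pooled RNA of these cultures was on 1 more array with the dyes swapped. The model is transient silencing in 1 cell line, n is 4 cultures per condition, and the siFoxE1 extracts are shared between the comparisons.

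In the methionine cycle, methionine adenosyltransferase turns methionine into S-adenosylmethionine, the methyl donor of most methyltransferases. Each transfer leaves S-adenosylhomocysteine, which inhibits methyltransferases and is split by the product of Ahcy into adenosine and homocysteine. Homocysteine is either methylated back to methionine or passed through the transsulfuration route to cysteine, while adenosine is removed by adenosine kinase.

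The thyroid follicular markers Tg, Tshr, Slc5a5, Pax8, Nkx2-1, Foxe1 and Hhex were well above background in all 20 channels. Of the 5 fibroblast markers 3 were, at median log2 levels of at most 7.70, and Dcn was above background in none. Of the endothelial markers only Cdh5 was above background in all 20, with Pecam1 in none, and neither of the 2 leukocyte nor of the 2 C cell markers was above background in all 20 channels. The C cell marker Calcb was above it in 19 channels and the leukocyte marker Ptprc in 7. The brightest of the fibroblast, endothelial, leukocyte and C cell markers, Pdgfra, had median levels of 7.77 in siFoxE1, 7.70 in siScramble and 7.72 in wt channels. Per array 60.6 to 68.2% of spots exceeded background clearly in Cy3 and 56.8 to 60.3% in Cy5, and none was saturated. Precision is limited by the number of arrays.

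Ahcy RNA was lower in siFoxE1 cells on all 10 arrays, with 22.2 to 37.8% of the RNA in the other channel left. None of the other 9 genes passed the test in either comparison as fitted on its 5 arrays. Few genes passed there at all, 0.143% of all genes against siScramble and 0.0302% against wt. In the fit of all 10 arrays with the replicate number as a block, 1 of the 9, Cth, passed against wt (adjusted p = 0.0142). In that fit 10.1% of all genes passed against wt. Ahcy had been chosen by these log2 ratios, so they are given as a description, with no test. Its log2 ratios of siFoxE1 over siScramble were -2.09, -1.60, -2.17 and -1.91 for replicates 1 to 4 and -1.77 for the pool. Over wt they were -2.01, -1.40, -1.97 and -1.94, with -1.69 for the pool. The mean of the single cultures was -1.94 ± 0.255 against siScramble and -1.83 ± 0.287 against wt (SD, n = 4 each), which leaves 26.0% and 28.1% of the RNA and corresponds to 3.84-fold and 3.56-fold lower levels. No array of either comparison came near 0, and replicate 2 held the weakest change in both. A bulk measurement cannot tell fewer expressing cells apart from less RNA per cell.

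**Figure D1:**
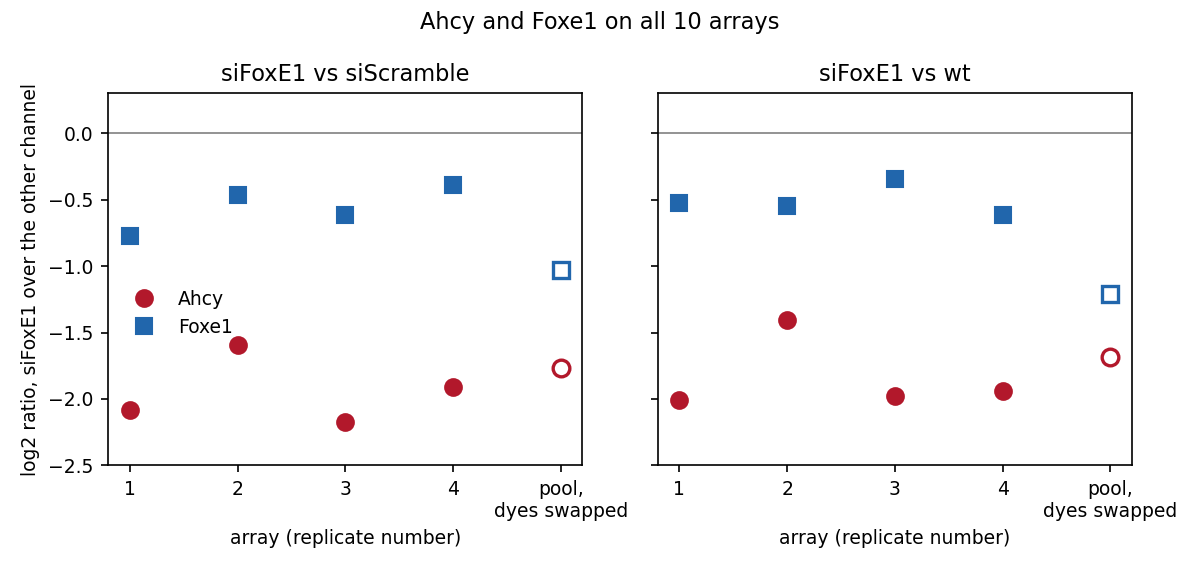
Log2 ratio of siFoxE1 over siScramble (left) or over wt (right) on each array, for Ahcy (circles) and Foxe1 (squares), with filled marks for single cultures and open marks for the pools with swapped dyes. Ahcy lies between -2.17 and -1.40 on all 10 arrays, below Foxe1 on each of them, and Foxe1 lies between -1.21 and -0.34.

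The scanner signals show the same difference before any normalization. Over the 2 spots of the 5 arrays, the median signal of the Ahcy spots was 1016 to 2630 in siFoxE1 channels and 3912 to 7806 in siScramble channels. Against wt it was 928.5 to 2605.5 in siFoxE1 channels and 4096 to 7374 in wt channels. Local backgrounds of these spots were at most 61.5, so both channels were far above background on every array. In the scanner software's own log ratios, which are dye-normalized, the 2 spots of 1 array differed by at most 0.0345 on the log2 scale.

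As normalized log2 levels of the probe, Ahcy stood at 10.14, 11.09, 10.33 and 10.35 in siFoxE1 cultures 1 to 4. It stood at 12.21, 12.65, 12.52 and 12.29 in siScramble cultures and at 12.18, 12.53, 12.28 and 12.26 in wt cultures. The highest siFoxE1 culture was thus below the lowest culture of either other condition. This is a description, since these levels gave the ratios that chose Ahcy. The siFoxE1 extract of each number was hybridized on 2 arrays, and its Ahcy level differed between them by at most 0.0723. Culture 2 had the highest Ahcy level under all 3 conditions.

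**Figure D2:**
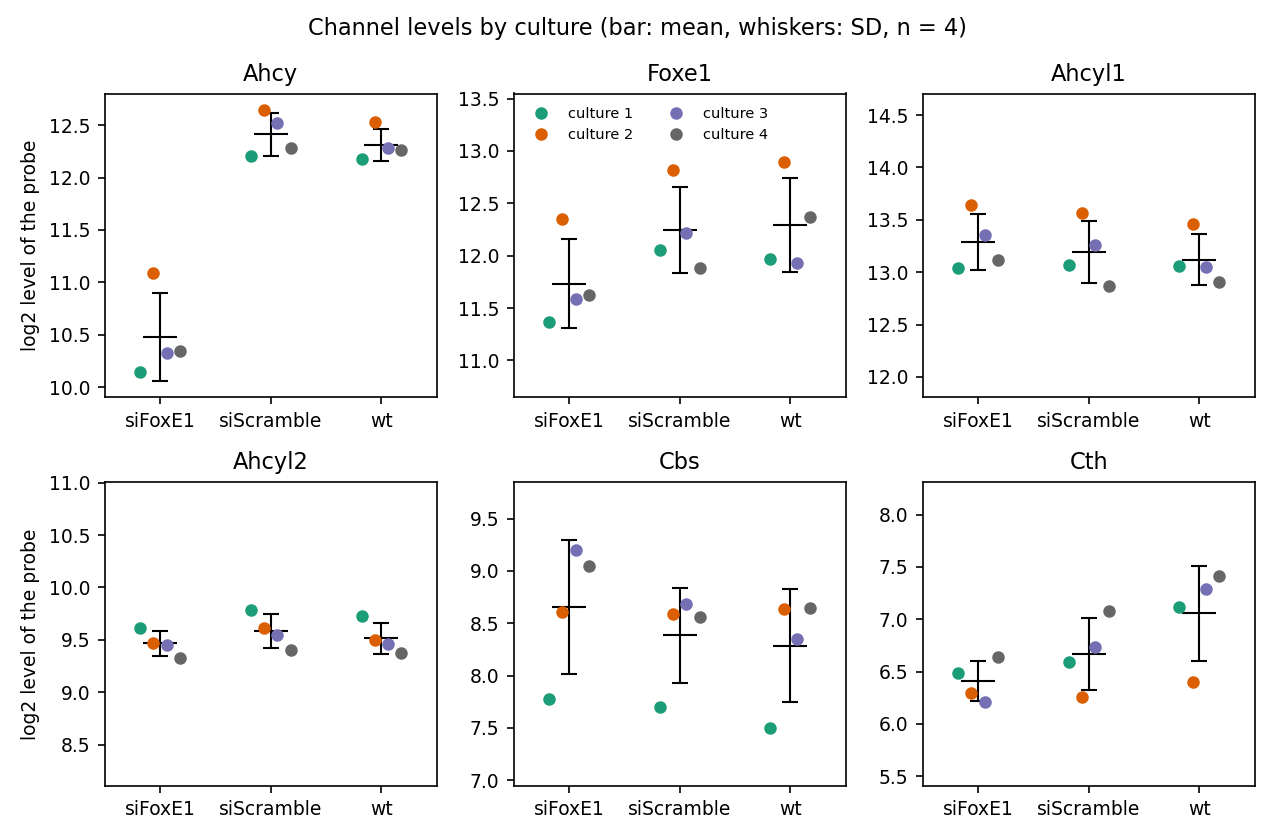
Normalized log2 level of 1 probe per gene in the siFoxE1, siScramble and wt cultures, coloured by culture number, with the mean (bar) and SD (whiskers, n = 4). Ahcy, chosen by the ratios of these levels, lies at 10.14 to 11.09 in siFoxE1, 12.21 to 12.65 in siScramble and 12.18 to 12.53 in wt cultures. Cultures pair by number, so overlap of the groups, as for Foxe1, does not measure a change within cultures.

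No array held both siScramble and wt RNA, so siScramble vs wt was estimated from the ratios of both to siFoxE1. For Ahcy these are the ratios that chose it, and its difference of 0.10 on the log2 scale is a description, with no test. Of 10067 genes 0 passed in this contrast (0%), with 353 at an unadjusted p under 0.05 (3.51%). The other 9 genes of the cycle held 0 at either threshold.

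Foxe1, the silenced gene, was lower on all 10 arrays too, but by less than Ahcy. Its log2 ratios (probe A_64_P075928) over siScramble were -0.77, -0.46, -0.62 and -0.39 for replicates 1 to 4, with -1.03 for the pool. Over wt they were -0.52, -0.55, -0.34 and -0.62, with -1.21 for the pool. Foxe1 fell by 0.80 (SE 0.086, adjusted p = 0.0247) against siScramble and by 0.86 (SE 0.077, adjusted p = 0.0345) against wt on the log2 scale in limma. The single cultures alone gave -0.56 against siScramble and -0.51 against wt. Without replicate 1 the adjusted p was 0.0562 against siScramble and 0.242 against wt, and without replicate 4 it was 0.241 against wt. Across arrays 43.3 to 78.8% of the Foxe1 RNA was left in siFoxE1 cells, where 22.2 to 37.8% of the Ahcy RNA was. These are RNA values of 1 probe per gene. The study reported a larger fall of FoxE1 protein by western blot of the array samples. It also reported a fall of Foxe1 RNA by qRT-PCR in separate silencing experiments.

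On the single-culture arrays, the deepest Foxe1 ratio and the deepest Ahcy ratio fell on different replicates in both comparisons. Against siScramble, Foxe1 was lowest for replicate 1 (-0.77) and Ahcy for replicate 3 (-2.17). Against wt, Foxe1 was lowest for replicate 4 (-0.62) and Ahcy for replicate 1 (-2.01). Replicates 1 and 3 held the deeper ratios of both genes against siScramble, but not against wt. The Foxe1 level of the same siFoxE1 extract differed by up to 0.266 between its 2 arrays. Single-culture Foxe1 ratios spanned only 0.381 against siScramble and 0.272 against wt, so the Foxe1 order of the arrays is uncertain. The shallowest Foxe1 ratio, -0.34 for replicate 3 against wt, came with an Ahcy ratio of -1.97. The deepest, -1.21 on the wt pool, came with -1.69, but pooling and swapped dyes set the pools apart. The pool minus the mean of the single cultures was -0.47 for Foxe1 against siScramble and -0.70 against wt. For Ahcy it was 0.17 and 0.15, so pools were not ranked with single cultures. The Ahcy ratio minus the Foxe1 ratio was -1.56 to -1.13 on the single-culture arrays against siScramble and -1.63 to -0.85 against wt, and -0.74 and -0.48 on the pools. No correlation of these ratios is given, since the arrays rest on 4 siFoxE1 cultures. Replicate 2, with the weakest Ahcy change, also had the narrowest spread of all probes, with an SD of the log2 ratios of 0.173 and 0.180 where the other arrays had 0.185 to 0.445. Replicates 3 and 4 had the widest spread, at 0.306 and 0.276 against siScramble and 0.445 and 0.299 against wt. The part of this spread in the Ahcy value was not tested. By slide, the siScramble arrays of slide 1 gave -2.09, -1.60 and -1.91 for Ahcy and those of slide 2 gave -2.17 and -1.77, which overlap.

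Among all genes, Ahcy combined a large change with a small spread. It had the lowest fitted difference of 9759 genes against siScramble and the second lowest of 9922 against wt, after Derl3, a gene of endoplasmic reticulum-associated degradation. Of 9603 genes with a ratio on all 10 arrays, 624 (6.5%) were below 0 on all 10, and 1 gene, Ahcy, was below -1 on all 10. Over the 10 ratios Ahcy had a mean of -1.85 and an SD of 0.238. Derl3 had a mean of -2.15 and an SD of 1.95, with ratios from -5.50 to -0.33. Hspa5, the chaperone BiP, had a mean of -1.18 with an SD of 1.36, and Creld2, a secretory pathway protein, -1.19 with 1.10. These ratios are those that chose Ahcy, so its place among all genes is a description.

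**Figure D3:**
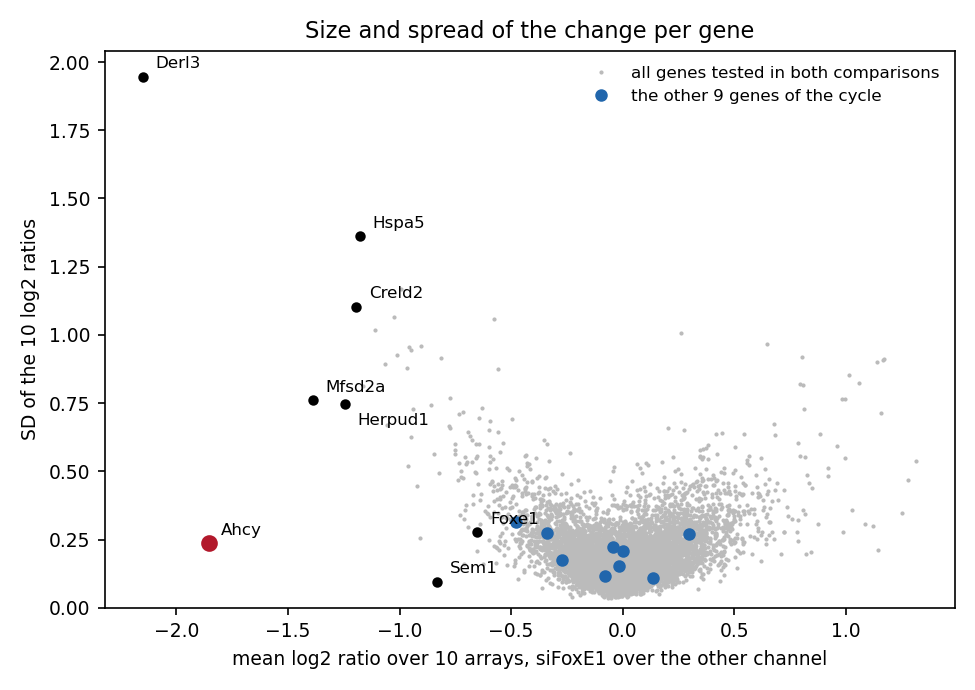
Mean (horizontal) and SD (vertical) of the 10 log2 ratios of siFoxE1 over the other channel, 1 grey point per gene tested in both comparisons, with the other 9 genes of the cycle in blue. Ahcy lies at a mean of -1.85 with an SD of 0.238, whereas Derl3, at -2.15, has an SD of 1.95, and the means of the other 9 genes run from -0.48 for Cth to 0.30 for Cbs.

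The gene starts of the members were searched for the short motifs at which FoxE1 is thought to bind, since a forkhead factor was silenced. RefSeq windows of 300 bases on GRCr8 (250 before the annotated start and 50 after) were found for all 10 genes. The motif ACAAA, which reads TTTGT on the other strand, was in the windows of 2 of the 10, Ahcy and Ahcyl1, where 48.1% of 33469 windows of the same length held it. The related motif AAACA, which reads TGTTT on the other strand and can overlap the first, was in the Mat2b window only, against 51.9% of all windows. ACAAA with TTGG, part of the site of the factor NF1/CTF, at 5 to 30 bases on the same strand and in either order was in the Ahcyl1 window only, against 12.3% of all. The windows of Ahcy and Ahcyl1 are printed 5′ to 3′ with the ACAAA or TTTGT letters in capitals, because these paralogs share the motif and differ in their RNA response. That of Ahcy is chr3:164044513-164044812, minus strand, and its match fills bases 296 to 300, after the start. That of Ahcyl1 is chr2:198016062-198016361, minus strand, with the match at bases 190 to 194, before the start.
Ahcy: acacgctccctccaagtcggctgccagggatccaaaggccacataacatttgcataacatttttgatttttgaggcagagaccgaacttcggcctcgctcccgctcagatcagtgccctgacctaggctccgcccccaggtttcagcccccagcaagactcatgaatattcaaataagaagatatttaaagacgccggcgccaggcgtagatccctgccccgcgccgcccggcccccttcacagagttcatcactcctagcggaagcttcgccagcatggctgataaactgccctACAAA
Ahcyl1: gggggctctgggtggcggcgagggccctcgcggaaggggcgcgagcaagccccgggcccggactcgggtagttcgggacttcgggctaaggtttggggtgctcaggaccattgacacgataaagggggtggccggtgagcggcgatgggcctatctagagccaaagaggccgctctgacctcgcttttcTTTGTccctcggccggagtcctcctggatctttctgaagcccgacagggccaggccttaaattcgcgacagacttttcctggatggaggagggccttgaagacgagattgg
These matches are letters in a window and say nothing of binding.

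Of the other 9 genes, 0 passed an adjusted p under 0.05 against siScramble, where 0.143% of 9759 genes did, and 0 against wt, where 0.0302% of 9922 did. At an unadjusted p under 0.05 there were 2 against siScramble (Mat2a and Mtr) beside 16.1% of all genes, leaving out Cth, which passed the filter on dim probes there only through its siScramble channels, and 2 against wt (Mat2a and Cth) beside 20.6%. The median fitted log2 difference of the 9 was -0.02 against siScramble and -0.13 against wt, with 0.00 over all genes in both. With all 10 arrays in one fit and the replicate number as a block, 0 of 9 passed against siScramble (0.437% of 10067 genes) and 1 of 9, Cth, against wt (10.1%). Of the brightest probe of each of the 9 genes, 2 were below 0 on all 5 arrays against siScramble (11% of all genes) and 0 above 0 (9.98%). Against wt, 3 were below 0 on all 5 (14%) and 1, Cbs, was above 0 on all 5 (11.2%).

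**Figure D4:**
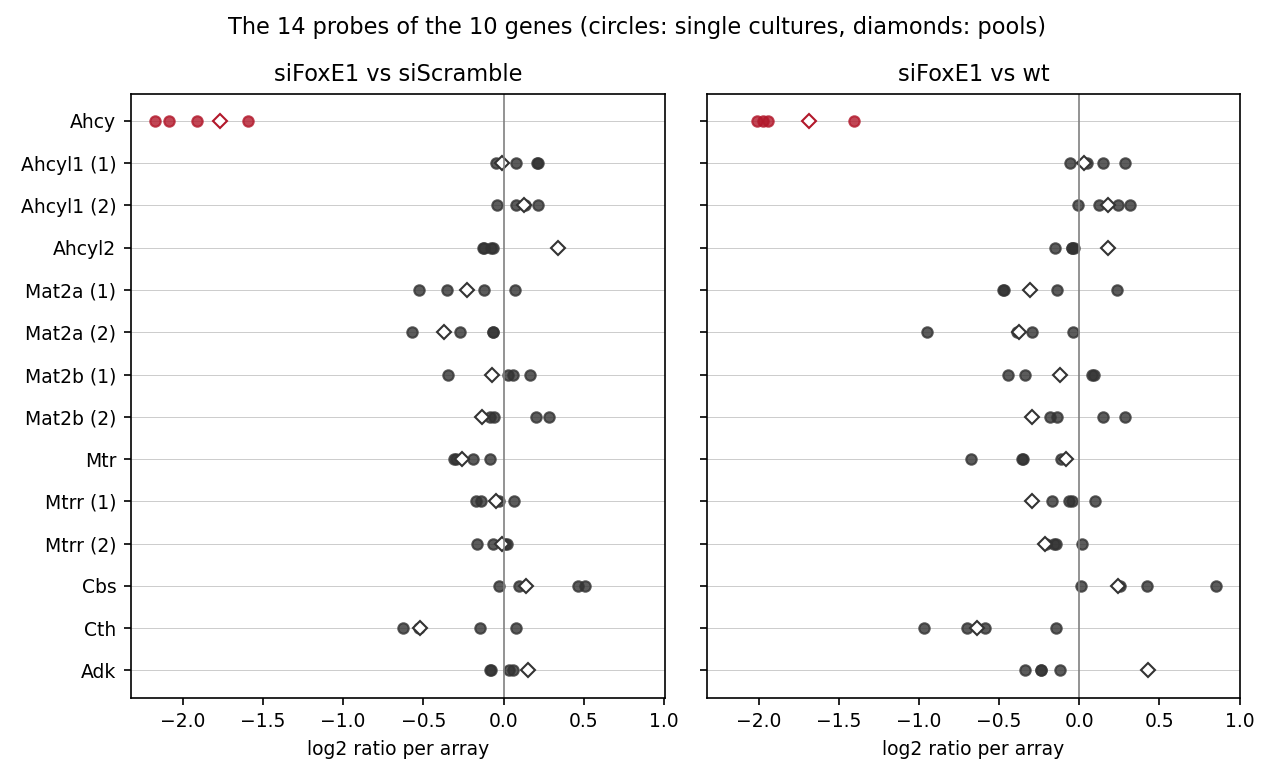
Log2 ratio of siFoxE1 over siScramble (left) and over wt (right) on each array for all 14 probes, with circles for single cultures and diamonds for pools, and with 2 lines for genes that have 2 probes. The Ahcy marks (-2.17 to -1.40) stand apart from those of every other probe, the lowest of which is -0.97 for Cth.

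Ahcyl1 and Ahcyl2 are the paralogs of Ahcy. The Ahcyl1 protein, known as IRBIT, binds the inositol trisphosphate receptor and is not known to hydrolyse S-adenosylhomocysteine. The brighter Ahcyl1 probe (A_44_P385988) had ratios of -0.04, 0.14, 0.08 and 0.22 and a pool of 0.13 against siScramble. Against wt it had -0.01, 0.12, 0.32 and 0.24, with 0.18 for the pool. Its fitted difference was 0.11 (95% interval -0.05 to 0.28, adjusted p = 0.561) against siScramble and 0.17 (-0.03 to 0.37, adjusted p = 0.326) against wt. The second Ahcyl1 probe lay between -0.06 and 0.29 on all 10 arrays. Intervals of both probes exclude a fall of the size seen for Ahcy. Levels of the brighter probe in siFoxE1 cultures, 13.04 to 13.64, overlapped those in siScramble (12.87 to 13.57) and wt cultures (12.91 to 13.46).

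Ahcyl2 (1 probe in 10 spots) had ratios of -0.13, -0.12, -0.08 and -0.07 in single cultures against siScramble, and 0.34 in the pool. Against wt it had -0.15, -0.04, -0.03 and -0.05, and 0.18 in the pool. Single cultures and pool thus had opposite signs in both comparisons. The fitted differences, which weigh both dye orientations equally, were 0.12 (adjusted p = 0.462) and 0.05 (adjusted p = 0.699), and the single cultures alone gave -0.10 (adjusted p = 0.302) and -0.07 (adjusted p = 0.476). Pooling and dye orientation cannot be told apart here.

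Mat2a encodes the catalytic subunit of the methionine adenosyltransferase found outside the liver, and Mat2b its regulatory subunit. The brighter Mat2a probe (A_64_P027404) had ratios of -0.07, -0.06, -0.57 and -0.27, with -0.37 for the pool, against siScramble. Against wt it had -0.30, -0.04, -0.95 and -0.39, with -0.37 for the pool. Replicates 3 and 4, whose arrays had the widest spread over all probes, were the lower single cultures in both comparisons. The fitted differences were -0.31 (SE 0.104, adjusted p = 0.294) and -0.40 (SE 0.159, adjusted p = 0.280), with -0.14 on the siScramble arrays of slide 1 alone. The second Mat2a probe gave -0.23 and -0.26 and was above 0 for replicate 2 in both comparisons, at 0.07 and 0.24. The 2 Mat2b probes lay between -0.35 and 0.28 against siScramble and between -0.45 and 0.28 against wt, and their fitted differences were -0.05 and -0.02 against siScramble and -0.14 and -0.13 against wt, with adjusted p of at least 0.528.

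Mtr encodes methionine synthase, which methylates homocysteine with a cobalamin cofactor, and Mtrr the reductase that reactivates it. Mtr had ratios of -0.31, -0.09, -0.19 and -0.30, with -0.26 for the pool, against siScramble. Against wt it had -0.36, -0.11, -0.68 and -0.35, with -0.08 for the pool. It was below 0 on all 10 arrays, as was Mat2a by its brighter probe, beside 6.5% of all genes. The fitted differences were -0.24 (SE 0.071, adjusted p = 0.258) and -0.23 (SE 0.108, adjusted p = 0.322), and the scanner software's processed signals gave -0.48 and -0.54. Its level was lowest in culture 2 under all conditions, at 6.71 in siFoxE1, 6.73 in siScramble and 6.89 in wt cells. The 2 Mtrr probes lay between -0.29 and 0.10 over all 10 arrays, with fitted differences of -0.06 and -0.03 against siScramble and -0.17 and -0.17 against wt.

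Cbs and Cth encode the enzymes of transsulfuration, cystathionine beta-synthase and cystathionine gamma-lyase, and had fitted differences of opposite sign. Cth had ratios of -0.14, 0.08, -0.63 and -0.52, with -0.52 for the pool, against siScramble. Against wt it had -0.59, -0.14, -0.97 and -0.70, with -0.64 for the pool. Its ratio was highest for replicate 2 and lowest for replicate 3 in both comparisons, the arrays with the narrowest and the widest spread over all probes. The fitted difference was -0.62 (SE 0.144, adjusted p = 0.236) against wt and, as a description, -0.41 (SE 0.131) against siScramble, where the probe passed the filter only through the siScramble channels. In the fit of all 10 arrays the difference from wt was -0.65, with an adjusted p of 0.0142 with the replicate block and 0.0235 without it. The siScramble vs wt difference from that fit without the block was -0.26 (adjusted p = 0.983). The Cth probe was dim, with siFoxE1 channels well above background on 2 of 5 arrays against siScramble and on 3 of 5 against wt, while the siScramble and wt channels were above it on all. Its size depended on the background correction, with -1.01 against siScramble and -1.49 against wt from the scanner software's processed signals. On the 3 siScramble arrays of slide 1 alone the difference was -0.20.

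Cbs had ratios of 0.10, -0.03, 0.51 and 0.47, with 0.14 for the pool, against siScramble. Against wt it had 0.25, 0.01, 0.85 and 0.42, with 0.24 for the pool. The same cultures, 3 and 4, that had the lowest Mat2a ratios had the highest Cbs ratios. Their arrays also had the widest spread over all probes, and the part of this spread in these ratios was not tested. The fitted differences were 0.20 (SE 0.112, adjusted p = 0.501) and 0.31 (SE 0.149, adjusted p = 0.325). Cbs levels spread widely among cultures, at 7.78, 8.61, 9.20 and 9.05 in siFoxE1, 7.70, 8.59, 8.68 and 8.56 in siScramble and 7.50, 8.64, 8.35 and 8.65 in wt cells, with culture 1 the lowest each time.

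Adk, adenosine kinase, takes up the other product of the Ahcy reaction. It had ratios of 0.06, -0.08, -0.09 and 0.04, with 0.15 for the pool, against siScramble. Against wt all single cultures were below 0, at -0.34, -0.12, -0.24 and -0.24, and the pool was at 0.43. The fitted differences were 0.07 (adjusted p = 0.738) and 0.10 (adjusted p = 0.490), and the single cultures alone gave -0.23 against wt (adjusted p = 0.0848). The fitted sign for Adk against wt therefore rests on the pooled array.

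Genes next to the cycle were taken from 6 lists, of which 47 genes were tested against siScramble and 48 against wt. None of them passed in either comparison, where 0.143% and 0.0302% of all genes did. With the replicate block 0 passed against siScramble, and 3 were higher and 7 lower against wt, where 10.1% of all genes were called. wt cells were not transfected, so differences from wt span transfection and silencing together. For the genes called under the block, siScramble vs wt was 0.38 for Sqor, 0.20 for Ethe1 and -0.001 for Tst. It was -0.20 for As3mt, -0.24 for Enoph1, -0.25 for Got1, -0.14 for Nnmt, -0.11 for Srm, -0.10 for Ampd2 and -0.05 for Prmt1. None of the listed genes passed in that contrast. The list medians lay between -0.09 and 0.11 against siScramble and between -0.05 and 0.12 against wt.

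Among methyltransferases, which make S-adenosylhomocysteine, Nnmt, nicotinamide N-methyltransferase, was below 0 on all 10 arrays, beside 6.5% of all genes. Its ratios were -0.32, -0.20, -0.67 and -0.38, with -0.32 for the pool, against siScramble, and -0.28, -0.36, -0.86 and -0.48, with -0.61 for the pool, against wt. Its fitted differences were -0.35 (SE 0.093, adjusted p = 0.229) and -0.55 (SE 0.116, adjusted p = 0.236), with 0.0132 against wt under the block. Gamt, which makes creatine, had fitted differences of 0.35 (adjusted p = 0.333) and 0.62 (adjusted p = 0.272), and As3mt, arsenite methyltransferase, -0.12 and -0.31 (adjusted p = 0.0410 against wt under the block). Of the enzymes that methylate protein or DNA, Dnmt3a was above 0 on all 10 arrays, beside 575 of 9603 genes. Its fitted differences were 0.21 (adjusted p = 0.272) and 0.17 (adjusted p = 0.344). Icmt was below 0 on all 10, at -0.13 and -0.20, and Prmt1 had -0.19 and -0.25 (adjusted p = 0.0451 against wt under the block), with pools at -0.43 and -0.49 and single cultures between -0.12 and 0.22.

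In the polyamine and methionine salvage list, Srm, spermidine synthase, had fitted differences of -0.45 (SE 0.108, adjusted p = 0.217) and -0.52 (SE 0.141, adjusted p = 0.236, 0.0189 under the block). Enoph1 had -0.17 and -0.45 (0.0335 under the block against wt) and Adi1, which follows it in the salvage route, 0.14 and 0.28. Of the genes of adenosine handling, Ampd2, an AMP deaminase, had -0.27 and -0.35 (0.0308 under the block against wt). Slc29a1, a nucleoside transporter, had 0.25 and 0.26 and was above 0 on all 10 arrays, beside 575 of 9603 genes. Ampd3 had 0.22 and 0.23. In the list of remethylation and S-adenosylmethionine supply, Bhmt, Mmachc and Mmadhc had fitted differences of -0.19, 0.10 and -0.03 against siScramble and of -0.35, -0.01 and -0.08 against wt.

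In the cysteine list, Sqor, Ethe1 and Tst, enzymes of mitochondrial sulfide oxidation or of sulfur transfer, had positive fitted differences in both comparisons. Sqor had ratios of 0.39, -0.06, 0.44 and 0.33, with 0.46 for the pool, against siScramble and 0.86, 0.16, 0.90 and 0.79, with 0.72 for the pool, against wt. Its fitted differences were 0.37 (SE 0.101, adjusted p = 0.237) and 0.70 (SE 0.146, adjusted p = 0.236), with 0.00602 against wt under the block and 0.0406 against wt without replicate 2. Ethe1 had 0.24 and 0.49 (0.00924 against wt under the block), and Tst 0.36 and 0.44 (0.0340). Against wt, replicate 2 was the lowest or second lowest single culture for all 3 genes. Other genes of the list had negative values, so that 5 of 9 fitted differences were above 0 against siScramble and 5 of 10 against wt. Got1, an aspartate aminotransferase, had -0.36 and -0.56 (adjusted p = 0.0336 against wt under the block), and Slc7a11, the cystine transporter, had -0.37 and -0.38.

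**Figure D5:**
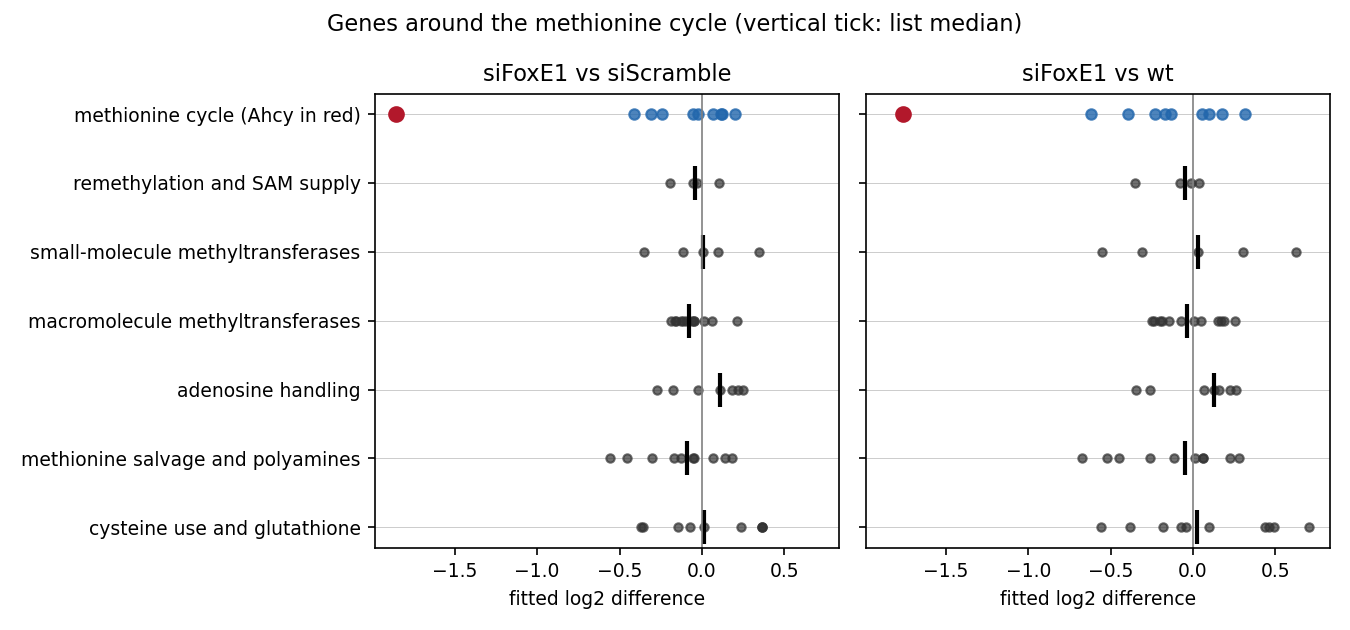
Fitted log2 difference of siFoxE1 from siScramble (left) and from wt (right) per gene, with the 10 genes of the cycle in the top line (Ahcy in red) and 6 lists of neighbouring genes beneath, and a vertical tick at each list's median. Ahcy lies at -1.86 and -1.76, and the lowest of the other genes is Sat1, at -0.56 and -0.67.

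The genes whose 10 ratios lay nearest to those of Ahcy, by the root mean square difference over the arrays, were Mfsd2a at 0.738, Herpud1 at 0.882, Pacsin2 at 0.964, Gmppb at 0.968 and Etv5 at 0.977. Mfsd2a encodes a lysophospholipid transporter and had a mean ratio of -1.39, but its ratios ran from -2.59 to -0.04. Pacsin2, an endocytic adaptor, was the most even of these, from -1.36 to -0.50. By Pearson correlation of the normalized level with Ahcy over the 20 channels, the nearest genes were Sem1 (r = 0.970), Vamp3 (0.946), Fam53a (0.907), Brk1 (0.905) and Csrnp2 (0.903), with a median of 0.029 over all genes. These are descriptions, because the 20 channels hold 12 cultures and their pools and share siFoxE1 extracts. Sem1, a small proteasome subunit, had fitted differences of -0.85 and -0.81, about the size of the Foxe1 change. Among the members, r with Ahcy was 0.518 for Cth and between -0.24 and 0.39 for the other 8. For Foxe1, the silenced gene, it was 0.791. Ahcy and Foxe1 were both lower in the siFoxE1 channel of all 10 arrays, and Ahcy was chosen for that fall. The Foxe1 value describes this shared fall and is no measure of a link between the genes.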

How the data were processed

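Per the file headers, the authors quantified 10 Agilent SurePrint Rat 60K arrays with Feature Extraction 10.7.3.1. The deposited files give median spot and background intensity per dye, intensity after background subtraction and dye normalization, log10 ratios of red over green and quality marks. A deposited table holds the authors' log2 ratios after loess and quantile normalization, with limma 3.2.3 named in the submitters' processing notes. In it, both pooled arrays already have siFoxE1 on top of the ratio.

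Median intensities of 58717 spots per array were corrected by normexp (offset 50), with control spots and outlier spots (1.25 to 1.60%) left out, normalized by loess and quantiles and averaged per probe in limma 3.58.1 (R 4.3.3). Tested probes were well above background in 1 channel on at least 3 of 5 arrays. Each comparison was fitted on 5 arrays with a dye term (3 residual degrees of freedom), which weighs the mean of the single cultures and the pool equally. After eBayes, p-values were adjusted (Benjamini-Hochberg, threshold 0.05) over all probes tested. The siScramble vs wt contrast came from a fit of all 10 arrays. The fits were also run on simulated ratios with independent noise on each array. The real pools share RNA with the single cultures, so that run does not vouch for the p-values here. The brightest tested probe stood for its gene, and 17998 probes were named through RefSeq accessions. Levels are the 2 channels of the normalized arrays. Sequences are from RefSeq (GRCr8). Motifs were searched in Python 3.11.15 with pandas 2.3.3, and plots were drawn with matplotlib 3.10.9.

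The dyes follow the labels, since the study's scheme draws them the other way and Foxe1 RNA is lower in the channels labelled siFoxE1. The replicate numbers pair the samples. By the study's scheme both arrays of a number hold the same siFoxE1 extract, and deviations from the group mean correlated across probes at 0.604, 0.746, 0.749 and 0.394 between same-numbered arrays, although number 4 reached 0.496 with another number. The block (duplicateCorrelation, within-number correlation 0.519) is given beside results it changes. Slide 1 held 8 arrays and slide 2 the siScramble arrays of replicate 3 and of the pool.

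The genes, their neighbours in the lists and the tests were chosen with earlier results of these data known. Named genes were all members with every probe, Foxe1, up to 3 genes per list with the smallest mean log10 p over both comparisons, and the 5 genes nearest to Ahcy by each of 2 measures. Derl3, Hspa5, Creld2, Sat1, Got1 and Slc7a11 were named after their values were seen. Alternatives covered background, normalization, filters, the dye term, pools, slide, joint fits, the replicate block, a robust trend and leaving out each replicate. Not every marker of the thyroid list is reported here.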

Additional observations from a re-analysis of the deposited data

Results flagged for a closer look

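In groups of 4 cultures or single-culture arrays, 8 of 70 sets of member values held 1 value far from the others, by Dixon's test at the 95% level. Chance alone meets this level in about 1 set in 20. These sets share arrays, extracts and genes, so the count is a description and is not set against that rate. For the Ahcy ratio against wt, replicate 2 stood at -1.40 where the others were at -2.01 to -1.94. These ratios chose Ahcy, so this flag is a description only. For Ahcyl2 against wt, replicate 1 stood at -0.15 where the others were at -0.05 to -0.03.

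Among levels, Mtr stood apart in culture 2 under all conditions, at 6.71 in siFoxE1, 6.73 in siScramble and 6.89 in wt cells, where the other cultures were at 7.04 or more in siFoxE1 cells, 7.35 or more in siScramble cells and 7.44 or more in wt cells. The fainter Mtrr probe stood apart in culture 2 of the siFoxE1 cells, at 7.45. Culture 1 of the siScramble cells stood apart for Cbs, at 7.70, and for the brighter Mat2b probe, at 10.41. No member had all arrays of one comparison above 0 and all of the other below 0.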

How the results depend on the processing

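The fitted Ahcy difference kept its sign and size under every alternative run, with -1.94 to -1.82 in 17 alternatives against siScramble and -1.83 to -1.73 in 15 against wt. Leaving out 1 replicate gave -1.91 to -1.82 and -1.83 to -1.73. The wt arrays lie on 1 slide, so the slide alternatives do not exist there. The count of the other 9 genes that passed was 0 in all alternatives against siScramble and in siScramble vs wt, and 0 to 0 without 1 replicate. Against wt it was 1 (Cth) without the dye term, 1 in the joint fit without the replicate block and 1 with the replicate block (10.1% of all genes). Listed neighbours that passed against siScramble numbered 2 without the dye term and 1 with individual arrays only. Against wt they numbered 5 without the dye term and 11 in the joint fit without the block. With the replicate block they numbered 10, where 10.1% of all genes were called, and on leaving out 1 replicate 0 to 1. The replicate block changed no other call of a member. Over all genes the counts were 14 and 3, against 0 to 471 and 0 to 1128 in the alternatives, and 0 to 1 in siScramble vs wt. The share of all genes called is given for the replicate block only, so counts under the other settings cannot be judged against it. Since the counts over all genes also moved with the setting, those of members and neighbours are not read as results about them. Fitted values of uncalled members changed sign in 13 of 220 cases against siScramble and in 5 of 194 against wt, by values of at most 0.142 and 0.233. Foxe1 no longer passed in 5 of 17 and in 3 of 15 alternatives, all with the same sign. The dim Cth probe is limited by its signal over background.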

Other observations

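The gap between the pooled array and the mean of the single cultures differed between members. The log2 ratio of the pool minus that mean was -0.47 for Foxe1 against siScramble and -0.70 against wt. It was 0.17 and 0.15 for Ahcy, 0.17 and 0.66 for Adk, and 0.44 and 0.25 for Ahcyl2. Pooling and the dye swap changed together, so their parts cannot be told apart.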
